A study of Mus musculus with 2 samples.

Results

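The rows described here are the 150 small nucleolar RNA (snoRNA) and small Cajal body RNA (scaRNA) rows among the 35034 transcript rows of the mouse dorsal root ganglion (DRG) data. They were chosen by their labels alone: a RefSeq identifier that starts with NR_ and a gene symbol that starts with Snora, Snord or Scarna. They carry 119 symbols and comprise 104 Snord, 37 Snora and 9 Scarna rows. The RefSeq table gives 141 of them the class snoRNA and 9 the class guide_RNA. All 150 were kept, also those listed at 0.

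RNA-seq was performed on 2 libraries, each from the pooled DRG neuron preparations of 10 male C57BL/6J mice of 6 to 8 weeks. The alum-injected mice received 50% alum in 200 µl saline intraperitoneally on days 0 and 14, and the label of this pool calls it both naïve and alum alone. The alum + KLH-immunized mice received the same with 100 µg keyhole limpet hemocyanin (KLH), a foreign protein antigen, and DRGs of both groups were collected on day 28 from the thoracic and lumbar regions. Both preparations were depleted of B lymphocytes, and both libraries were made with a kit that selects polyadenylated RNA. Values are TPM, a unit scaled by transcript length in which each library sums to 1000000. Each group has 1 library, so the spread between mice is not known, the pools were compared without a test, and no difference has a replicate check. All 6 sensory neuron markers on the list were above 3 TPM in both pools, spanning 244.0 to 6177 TPM among alum-injected mice and 202.0 to 5729 TPM among immunized mice. The 6 Schwann and satellite glia markers were above 3 TPM in both pools too, so the preparations were not neurons alone. None of the 4 B lineage markers exceeded 0.508 TPM in either pool, and none of the 3 macrophage or 3 muscle markers exceeded 1.63 TPM. Among the 3 red cell markers the highest value was 4.15 TPM in the alum pool and 1.62 TPM in the alum + KLH pool. In pooled tissue, fewer cells of a type and less RNA per cell cannot be told apart.

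snoRNAs guide the chemical modification of other RNAs by base pairing. Box C/D snoRNAs (Snord) direct 2′-O-methylation of ribosomal RNA with the methyltransferase fibrillarin, box H/ACA snoRNAs (Snora) direct pseudouridylation with dyskerin, and scaRNAs (Scarna) guide the same reactions on spliceosomal RNAs in Cajal bodies. Most are cut out of introns of host genes and lack a poly(A) tail, so an mRNA library captures them by routes other than their own tail. In neurons the imprinted Prader-Willi region is known for C/D snoRNAs without an established ribosomal target, among them Snord64 and the repeated Snord116 copies.

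The RefSeq records against which the reads were quantified were short, from 28 to 275 bases, and often held less than the whole RNA. Apart from Snord116, 116 accessions were compared with the GENCODE annotation of GRCm38, and 91 of the records were shorter than the annotated RNA. The sequences that follow show the highest rows, the Snord116 copies and 2 cut records. Each is the GENCODE RNA, 5′ to 3′, and capitals mark the stretch in the RefSeq record. Snord64 (chr7:59978808-59978874, minus strand) has a record of 46 of 67 bases. Snord91a (chr11:74905424-74905516, plus strand, within Tsr1) has 60 of 93, and Snord47 (chr1:161038082-161038158, plus strand, within Gas5) has 65 of 77. Snora28 (chr12:111540941-111541067, plus strand, within Eif5) has 122 of 127. Snord116 (chr7:59675988-59676081, minus strand, in an intron of Snhg14) has 90 of 94, and Snora20 (chr17:12922790-12922917, plus strand, within Tcp1) has 61 of 128. Snord98 (chr10:62765576-62765640, minus strand, within Ccar1) has 28 of 65 bases, fewer than the 31 bases of a k-mer of the default length in kallisto, and was listed at 0 in both pools.
Snord64: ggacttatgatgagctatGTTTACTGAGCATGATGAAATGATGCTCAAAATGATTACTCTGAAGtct
Snord91a: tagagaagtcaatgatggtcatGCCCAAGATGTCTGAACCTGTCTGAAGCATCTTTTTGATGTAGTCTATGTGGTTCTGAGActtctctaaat
Snord47: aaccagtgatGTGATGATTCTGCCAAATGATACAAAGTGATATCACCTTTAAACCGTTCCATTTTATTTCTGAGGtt
Snora28: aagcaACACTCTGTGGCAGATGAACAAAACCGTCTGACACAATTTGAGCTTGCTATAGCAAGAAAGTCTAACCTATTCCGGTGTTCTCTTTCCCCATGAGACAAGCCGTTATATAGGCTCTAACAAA
Snord116: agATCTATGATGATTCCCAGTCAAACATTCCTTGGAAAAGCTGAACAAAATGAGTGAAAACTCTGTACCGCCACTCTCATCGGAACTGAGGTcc
Snora20: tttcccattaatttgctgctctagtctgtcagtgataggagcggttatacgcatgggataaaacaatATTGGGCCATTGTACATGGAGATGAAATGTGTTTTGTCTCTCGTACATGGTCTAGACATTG
Snord98: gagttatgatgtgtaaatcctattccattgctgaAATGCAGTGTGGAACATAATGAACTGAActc

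The cut ends bear on the boxes that name the class. In 59 Snord RNAs whose record lay within a GENCODE RNA, the letters TGATGA, the core of the C box, occurred in 41 whole RNAs (69.5%) but in 20 RefSeq records (33.9%). The same letters occurred in 2.25% of the first 70 bases of 140850 other transcripts. The D box letters CTGA, sought on the RNA strand in the same way, were in all 59 whole RNAs and all 59 records, and in 32.5% of the other windows. These windows are not matched in length to each RNA, and a match is a description of letters only.

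The 150 rows summed to 7838 TPM in the alum pool and 10477 TPM in the alum + KLH pool, which is 0.784% and 1.05% of each library. The Snord rows made up 6652 and 9496 TPM of these sums, the Snora rows 1148 and 957.8 TPM and the Scarna rows 38.2 and 23.4 TPM. The Snord sum was therefore higher in the alum + KLH pool, and the Snora and Scarna sums were lower. A single row, Snord64, held 34.0% of the sum in the alum pool and 46.7% in the alum + KLH pool. Of the difference of 2639 TPM between the sums, 2230 TPM was Snord64. Without it, the sums were 5177 and 5586 TPM, a ratio of 1.08, beside 1.34 with it. The 10 highest rows held 70.4% and 79.8% of the sums.

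The 3 highest rows were the same in both pools. Snord64 was at 2661 TPM in the alum pool and 4891 TPM in the alum + KLH pool, a log2 ratio of 0.88 on the log2(TPM + 1) scale used throughout. Among the 500 rows nearest to it in level, this ratio had an SD of 0.16, called the neighbour SD. It covers rows of every kind and length, so it does not describe the spread that short rows would show between repeated libraries. Snord91a was at 662.8 and 1001 TPM, with a log2 ratio of 0.59 beside a neighbour SD of 0.16. Snord47, a methylation guide encoded in the noncoding host gene Gas5, was at 572.0 and 782.8 TPM, with a log2 ratio of 0.45 beside 0.16. All 3 were thus higher in the alum + KLH pool by more than rows of like level usually differed. Snora28, the highest H/ACA row, went the other way, at 379.0 and 309.4 TPM, with a log2 ratio of -0.29 beside 0.13. Snord69 was at 282.1 and 344.4 TPM, and Snord2 was at 289.4 and 323.9 TPM. Both lay closer to equality than the first 3 rows, at log2 ratios of 0.29 and 0.16. Snord96a was at 191.8 and 200.7 TPM, Snord70 at 143.7 and 207.8 TPM, and Snord72 at 152.5 and 164.7 TPM. Snora81, which shares the host Eif4a2 with Snord2, was at 185.1 and 130.0 TPM, a log2 ratio of -0.51. Of the 15 rows with a mean above 100 TPM, 10 were higher and 5 lower in the alum + KLH pool, and none was 2-fold apart. Over all 2111 rows at that level, 1172 were higher and 939 lower, and only 5 (0.237%) were 2-fold apart.

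**Figure D1:**
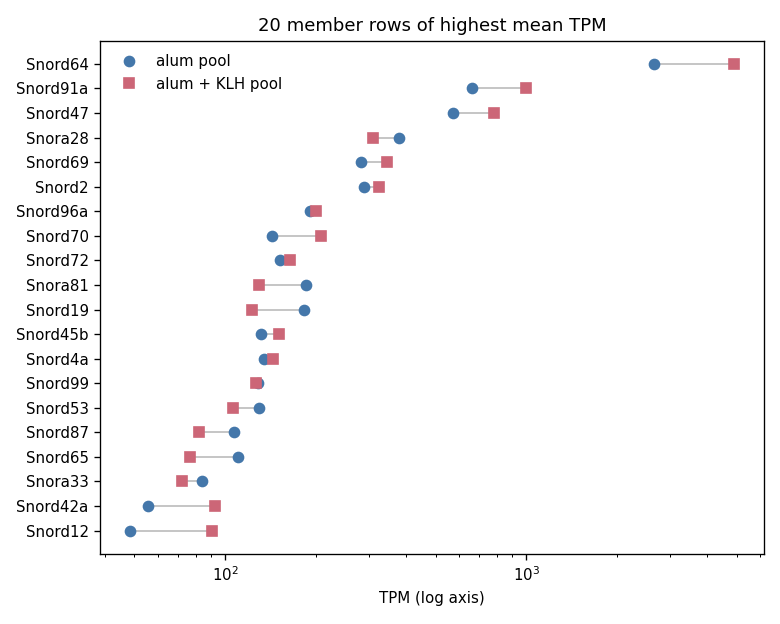
TPM of the 20 rows with the highest mean, on a log axis, with a circle for the alum pool and a square for the alum + KLH pool (1 library each, no error bars). Snord64 stands above the rest at 2661 and 4891 TPM, and most pairs lie close together.

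Above the detection threshold of 3 TPM were 100 of the 150 rows (66.7%) in the alum pool and 67 (44.7%) in the alum + KLH pool. Over all rows the shares were 39.2% and 38.4%. The gap of 33 rows between the pools was for the most part 1 measurement repeated: the 30 rows of Snord116, Snord116l1 and Snord116l2 were all at 3.28 TPM in the alum pool and all at 0.280 TPM in the alum + KLH pool. Their records have the same 90 bases, so the reads could not be told apart and were shared out equally. Apart from these copies, 70 and 67 of 120 rows were above 3 TPM, with 54 in both pools. The Snord rows without Snord116 gave 45 of 74 in each pool, the Snora rows 22 and 20 of 37, and the Scarna rows 3 and 2 of 9. Listed at 0 were 41 rows in the alum pool and 45 in the alum + KLH pool, 26 of them in both. Over all rows 30.2% and 29.9% were at 0.

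Summed over the 30 copies, Snord116 was at 98.3 TPM in the alum pool and 8.41 TPM in the alum + KLH pool. The noncoding gene Snhg14, in whose introns the copies lie, was at 152.2 and 177.3 TPM. Snord64 lies on the same strand of the same chromosome, and was higher in the alum + KLH pool. The members of the imprinted region therefore did not move in 1 direction: Snord64 and Snhg14 were higher and the Snord116 copies lower in the alum + KLH pool. No cause of this difference was tested.

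The low values were not continuous. At many record lengths, most values of member rows were whole multiples of 1 amount, called a step here. In the alum pool 61 of the 64 member rows at lengths where a step could be read were whole multiples of it, within 0.02 of a step, and in the alum + KLH pool 52 of 56. A row of each length sets the step, so it is whole by construction. Left out were 37 member rows in the alum pool and 35 in the alum + KLH pool whose step rested on 1 row. Snord116 made up 30 of these in each pool. No step was found for 8 and 14 more. A step counted as read only at lengths with at least 2 whole rows, and it was the value that left most rows whole. The shares of whole rows at such lengths are raised by this selection. Among all short noncoding rows at such lengths 174 of 257 (67.7%) and 174 of 263 (66.2%) were whole. The single length with more than 20 rows, 121 bases, had 65 and 64 rows above 0 of which 2 were whole in each pool, and without it 172 of 192 (89.6%) and 172 of 199 (86.4%) were whole. Steps were between 1.87 and 6.93 TPM for the alum pool and between 1.60 and 6.83 TPM for the alum + KLH pool, larger at short records than at long ones. If 1 step is 1 sequenced fragment, the number of steps is the number of fragments assigned to the row. The files hold no counts with which to check this.

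**Figure D2:**
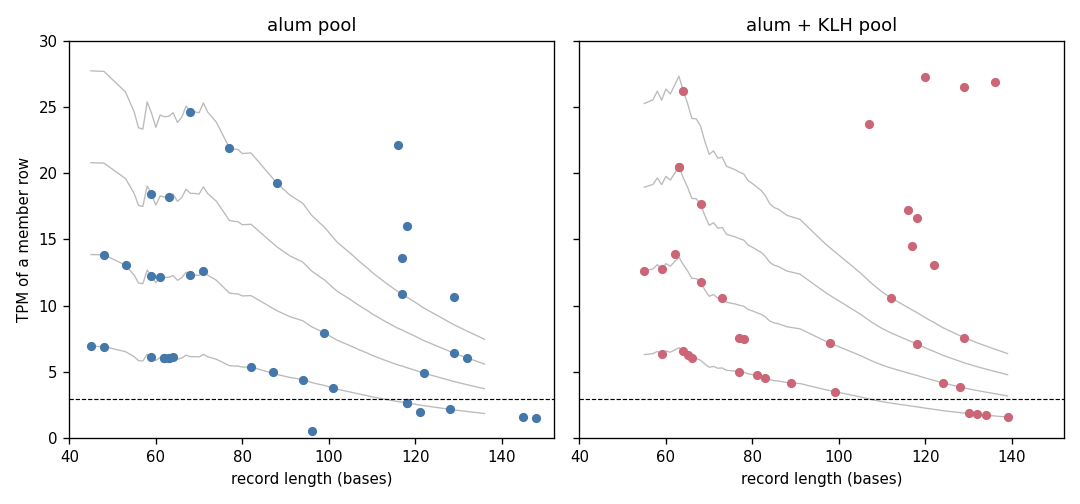
TPM of member rows at or below 28 TPM against record length in bases, 1 point per row, in the alum pool (left) and the alum + KLH pool (right), without Snord116. Grey lines are 1, 2, 3 and 4 steps, the dashed line is 3 TPM, and most points fall on or close to a grey line.

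Read in steps, the rows covered a wide range. Snord91a was 113 steps in the alum pool and 152 in the alum + KLH pool, with exact 95% Poisson intervals of 93.1 to 135.9 and 128.8 to 178.2. Snord47 was 96 and 124 steps, with intervals of 77.8 to 117.2 and 103.1 to 147.8. For both rows the intervals of the pools overlapped, which does not show that the pools were equal. The intervals cover counting error only and take 1 step as 1 fragment. Snord2 was 47 and 55 steps, and Snord69 was 46 and 54. Of the whole rows, 25 in the alum pool and 22 in the alum + KLH pool stood at 1 to 3 steps, 13 and 11 of these at a single step, while 22 and 17 stood at 10 steps or more. At record lengths up to 110 bases in the alum pool and up to 105 bases in the alum + KLH pool, 1 step was above 3 TPM. At those lengths a row passed the detection threshold with a single step. Values under 1 step occurred as well: Snord7 was at 0.566 TPM (0.135 steps) in the alum pool and 0 in the other. The sum over the Snord116 copies, 98.3 and 8.41 TPM, came to 21 and 2 steps of the 90-base length, with exact 95% Poisson intervals of 13.0 to 32.1 and 0.24 to 7.22. That step was read from 1 of the 2 other rows of this length above 0, and the second was not a whole multiple of it in either pool, so it has less support than the others.

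The step itself differed between the pools by an amount that changed with record length. Over 39 lengths with a step in both pools, the step of the alum + KLH pool divided by that of the alum pool ranged from 0.857 at 71 bases to 1.125 at 63 bases, with a median of 0.891. A TPM ratio between the pools thus contains a factor, the ratio of the steps, that differed between record lengths. For Snord91a, with 60 bases, the step was 5.87 TPM in the alum pool and 6.59 TPM in the alum + KLH pool. For Snord2, with 68 bases, it was 6.16 and 5.89 TPM. Over 63 rows with whole steps, or 0, in both pools, the alum + KLH pool held 1.15 times the steps of the alum pool and 1.18 times the TPM. Snord64 had no step to be read at its 46 bases in either pool, and its 2661 and 4891 TPM could not be turned into steps.

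**Figure D3:**
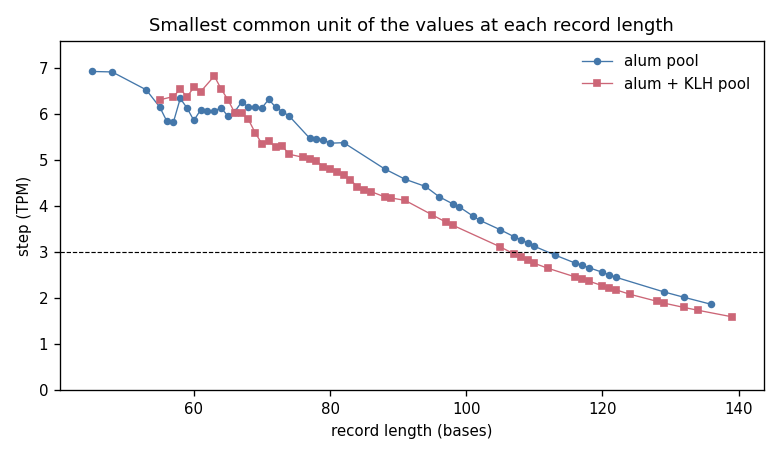
The step in TPM at each record length in bases with at least 2 whole rows, as circles for the alum pool and squares for the alum + KLH pool, with 3 TPM dashed. The alum + KLH steps lie above the alum steps at 63 bases and below them at 71 bases, and both fall under 3 TPM at lengths beyond 110 bases.

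At least 2-fold apart, among the 113 rows above 3 TPM in 1 or both pools, were 19 rows higher in the alum + KLH pool and 50 rows lower. These are 16.8% and 44.2%, beside 1.86% and 2.79% of all rows filtered in the same way. The 30 Snord116 copies were among the lower rows, and without them 20 of 83 were lower. The median log2 ratio was -0.38 with the copies and 0.05 without them, so its sign rested on the copies, beside -0.02 over all rows. Of the 19 higher rows, 11 were listed at 0 in the alum pool, and of the 20 lower rows 14 were at 0 in the alum + KLH pool. Such switches between 0 and more than 3 TPM were thus 11 and 14 of the 83 filtered rows without the copies. Over all 14215 filtered rows they were 92 (0.647%) and 108 (0.76%), in the same order. Of those rows, 265 were 2-fold higher and 396 lower. With the rows at 0 in 1 pool left out, 58 of the 83 rows remained. Of these, 8 were 2-fold higher and 6 lower, with a median log2 ratio of 0.06. Over all filtered rows, 14015 remained in the same way, 173 of them 2-fold higher and 288 lower, with a median of -0.02.

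The rows that differed most between the pools were rows of few steps. Highest in the alum pool among those at 0 in the alum + KLH pool were Snord95 at 24.6 TPM (4 steps), Snord123 at 19.3 TPM (4 steps), Snord43 at 13.8 TPM (2 steps), Snord37 at 13.1 TPM (2 steps) and Scarna10 at 12.6 TPM (2 steps). In the opposite direction stood Snord82 at 11.8 TPM and Snord104 at 10.6 TPM, with 2 steps each. They were followed by Snord1c at 7.46 TPM, Snord67 at 7.18 TPM and Snord71 at 6.55 TPM, all 3 at 0 in the alum pool. Snord1c was at 1.497 steps, so it was not whole, and its relative Snord1b was at 7 steps in the alum pool and 1.503 in the alum + KLH pool. Further rows were above 3 TPM in the alum pool and at 0 in the alum + KLH pool. They were Snora44 at 10.9, Snord93 at 6.93, Snord68 at 6.92, Snord49b at 6.07 and Snora61 at 6.06 TPM. Next came Snord33 at 5.37, Snord35b at 5.01, Snord89 at 4.43 and Snora5c at 3.78 TPM. Conversely, further rows were above 3 TPM in the alum + KLH pool and at 0 in the alum pool. They were Snord85 at 6.31, Snord34 at 6.03, Snord32a at 4.74, Snord92 at 4.57, Snord35a at 4.18 and Scarna3b at 4.18 TPM. Of these 15 rows, Snora44 stood at 4 steps, Scarna3b at 2 and the others at 1 (for Snord35b a step that the row itself set). Of the 30 rows with at most 3 steps in either pool, 26 were at least 2-fold apart and 23 were at 0 in 1 pool. Of the 15 rows whose higher pool held 4 to 9 steps, 8 were 2-fold apart. Of the 18 rows that reached 10 steps in at least 1 pool, only Snora70 was, at 5 steps in the alum pool and 14 in the alum + KLH pool. These counts cover only rows with whole steps, or 0, in both pools. Outside them, Snora31 was 2-fold lower in the alum + KLH pool, at 12.753 steps in the alum pool and 4 in the other. Snord118 was 2-fold higher, at 16.739 and 46.911 steps. The alum step of Snora31 and both steps of Snord118 rested on 1 row.

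**Figure D4:**
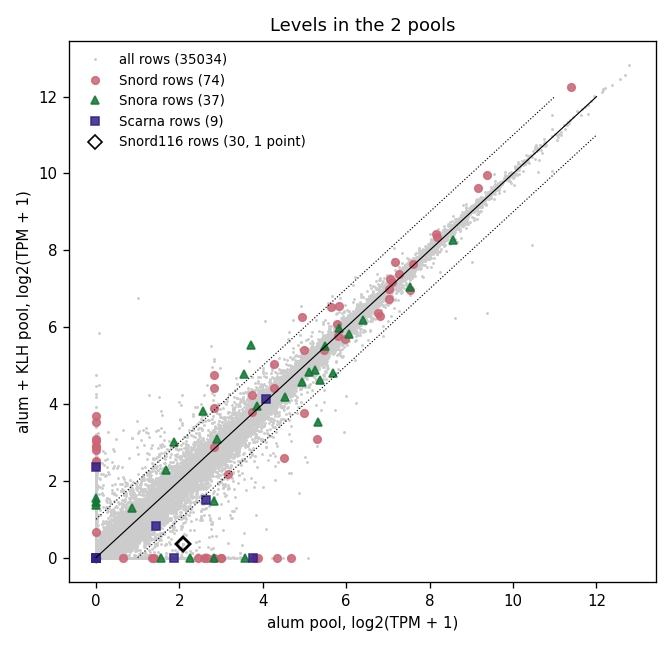
Level in the alum + KLH pool against the level in the alum pool, both as log2(TPM + 1), 1 point per row. Coloured points are member rows by class, the black diamond is the 30 Snord116 copies, grey points are all 35034 rows, the solid line is equality and the dotted lines are 2-fold. Member rows with high values follow the diagonal, while many low ones lie on an axis at 0.

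Rows of lower mean level were 2-fold apart more often, and in each of 3 ranges of level more often than all rows. The ranges match rows by TPM and not by steps. In the alum pool 1 step was 1.87 to 6.93 TPM, so a member at 3 to 10 TPM could hold few steps. Steps were not sought for records over 150 bases, so the shares are not compared at like numbers of steps. Of the 25 rows with a mean from 3 to 10 TPM, Snord116 left out, 21 (84.0%) were at least 2-fold apart, beside 6.17% of all rows in that range. From 10 to 30 TPM it was 9 of 17 rows (52.9%), beside 1.84%, and from 30 to 100 TPM it was 1 of 18 (5.56%), beside 0.494%. That row was Snord118 (U8), a C/D RNA that the processing of 5.8S and 28S ribosomal RNA needs. It was at 29.7 TPM in the alum pool and 75.9 TPM in the alum + KLH pool, a log2 ratio of 1.33 beside a neighbour SD of 0.17, and no step supported by 2 rows was found at its 137 bases. Across the 83 rows above 3 TPM in 1 or both pools, Pearson's r between the pools was 0.749 and Spearman's rho 0.812 on the log2 scale, beside 0.964 and 0.975 over 14215 rows. These correlations are across rows of the same 2 libraries, which are not independent replicates.

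The record length went along with level weakly. Among the 74 Snord rows without Snord116, Spearman's rho between length and mean level was -0.347, and among the 37 Snora rows -0.044. Snord116 again left out, the 23 rows with records of 28 to 59 bases summed to 3867 TPM in the alum pool and 6128 TPM in the alum + KLH pool, mostly Snord64. The 38 rows of 60 to 78 bases summed to 2533 and 3184 TPM. The 20 rows of 81 to 107 bases summed to 225.2 and 173.2 TPM, the 30 rows of 112 to 139 bases to 888.9 and 825.4 TPM and the 9 longest to 225.5 and 157.6 TPM. The sums of both groups under 80 bases were higher in the alum + KLH pool, and those of the 3 longer groups were lower. These sums also contain the ratio of the steps, which differed with record length. At 60 bases the step was 5.87 TPM in the alum pool and 6.59 TPM in the alum + KLH pool. It was 6.32 and 5.42 TPM at 71 bases, and 2.67 and 2.37 TPM at 118 bases. Whether the pattern remains when read in steps was not tested. Within the 20 rows of 81 to 107 bases, 9 and 8 rows were above 3 TPM.

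Textbook members with a known role in ribosome assembly differed in level. Snord14a, Snord14c and Snord14d (U14), which serve in the maturation of 18S ribosomal RNA, were at 0 in both pools. Their host genes Rps13 and Hspa8 were at 300.8 and 291.3 TPM and at 4511 and 4459 TPM. Snord22 (U22), also needed for 18S ribosomal RNA, was at 54.2 and 66.2 TPM, a log2 ratio of 0.28. It lies in Snhg1, a noncoding host gene at 144.8 and 132.6 TPM. Snord17 was at 0 in the alum pool and 0.582 TPM in the alum + KLH pool. The 4 RNAs of Rpl13a, known for their part in the lipotoxic stress response, gave 1 row above 3 TPM in the alum pool (Snord33) and 3 in the alum + KLH pool (Snord32a, Snord34 and Snord35a). No row of this host was above 3 TPM in both pools, and Rpl13a itself was at 171.0 and 136.4 TPM. Each of the 4 nonzero values was 1 step.

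Among the 9 scaRNA rows, Scarna3a was the only one above 3 TPM in both pools. It was at 16.0 TPM in the alum pool and 16.6 TPM in the alum + KLH pool, 6 and 7 steps, a log2 ratio of 0.05. Scarna6 was at 5.18 and 1.85 TPM, and Scarna13, whose record shares 14.3% of its 31-mers with a microRNA precursor, was at 1.71 and 0.762 TPM. Scarna10 was at 12.6 TPM and 0, and Scarna8 at 2.67 TPM and 0. Scarna3b was at 0 and 4.18 TPM, but all of its 31-mers also occur in transcripts of other genes, a microRNA precursor among them. Scarna2, Scarna9 and Scarna17 were at 0 in both pools. The record of Scarna2 holds 61 of 414 bases and that of Scarna10 holds 71 of 325, so the TPM of these rows refers to a small stretch of the RNA.

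Host genes and their snoRNAs were compared within the annotation. Apart from Snord116, 101 of the 116 accessions lay within another gene: 54 in an intron, 43 in an exon of an annotated transcript not among the rows, and 4 in an exon of a transcript among the rows. Reads from such exons can reach the snoRNA record without any free snoRNA, and how many did was not tested. The 105 rows had 76 host genes, of which 61 code for proteins. Across these rows Spearman's rho between the mean level of the host and that of the row was 0.295, with several rows sharing a host. Tpt1, a host at 3367 and 3366 TPM, carries Snora31 at 38.9 and 10.6 TPM. Tsr1, at 51.5 and 50.2 TPM, carries Snord91a at 662.8 and 1001 TPM. In 69 rows where the host and the row were each above 3 TPM in 1 or both pools, the log2 ratios of the 51 hosts ran from -0.40 to 0.22 and none was 2-fold apart, while 29 of the rows were. In 14 of the 69 the row exceeded its host in the alum pool. Neighbours in 1 host could differ in direction or size: in Gnl3, at 99.6 and 94.5 TPM, Snord69 was at 282.1 and 344.4 TPM and Snord19 at 183.5 and 123.3 TPM. In Snhg12, at 34.2 and 33.2 TPM, the rows were lower in the alum + KLH pool by unlike amounts, Snord99 at 128.8 and 126.7 TPM and Snora16a at 50.4 and 26.9 TPM. In Rpl23a, at 598.6 and 520.6 TPM, Snord42a was at 55.4 and 92.8 TPM, Snord42b at 61.5 and 50.5 TPM and Snord4a at 135.1 and 144.6 TPM. All 31-mers of Snord42a and Snord4a also occur in transcripts of Tlcd1, so these 2 values are uncertain. The same holds for Snora19, Snora24 and Snora26, whose 31-mers all occur in a microRNA precursor, in Snhg8 and in Dancr. Of these, Snora26 was at 1.95 TPM in the alum pool and 0 in the other, and Snora19 and Snora24 were at 0 in both. Some accessions have more than 1 row. Snord53 had 1 row at 129.3 and 106.0 TPM and 2 rows at 0, and Snord58b had 1 row at 30.8 and 12.6 TPM and 1 at 0.

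**Figure D5:**
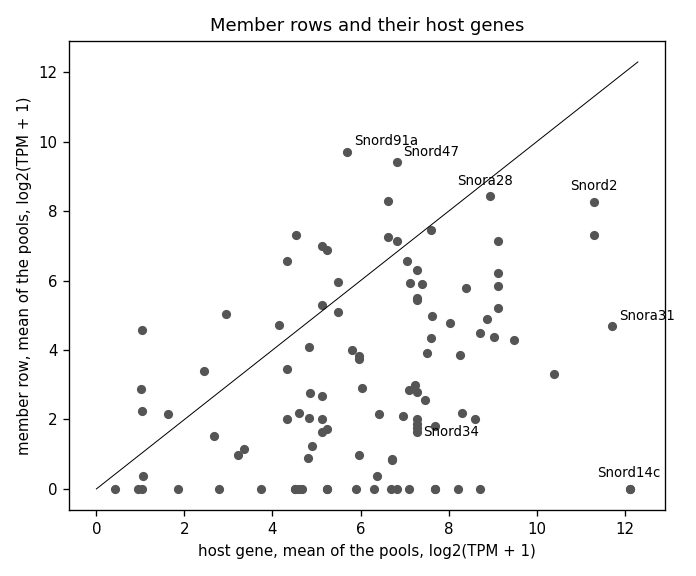
Mean level of each member row with a host gene against that of the host, both as log2(TPM + 1) over the pools, 105 points, with equality as a line. Most rows lie under the line, Snord91a and Snord47 lie above it, and Snord14c is at 0 in the host Hspa8.

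Transcripts of the proteins that bind and assemble these RNAs were measured beside them. Those of all 4 core proteins of C/D particles were above 3 TPM in both pools, 1 higher and 3 lower in the alum + KLH pool, with a median log2 ratio of -0.10. The methyltransferase Fbl was at 12.8 and 11.1 TPM, and the scaffold proteins Nop56 and Nop58 at 65.7 and 57.6 TPM and at 194.1 and 191.1 TPM. Nhp2l1 (Snu13), which binds the folded C and D boxes, was at 294.3 and 307.4 TPM. Those of all 4 H/ACA core proteins were above 3 TPM in both pools, 2 higher and 2 lower, with a median of -0.02. The pseudouridine synthase Dkc1 was at 30.7 and 31.2 TPM. Of 14 assembly and processing genes 12 were above 3 TPM in both pools, 4 higher and 8 lower, with a median of -0.05. Among them the lariat debranching enzyme Dbr1, which frees intronic snoRNAs, was at 8.83 and 8.33 TPM. Of 9 Cajal body genes 8 were above 3 TPM in both pools, 2 higher and 6 lower. The scaffold protein Coil was at 13.2 TPM in both pools, while Wrap53, which brings scaRNAs to Cajal bodies, was at 0.929 and 1.09 TPM. Of 18 noncoding host genes 16 were above 3 TPM in both pools, 11 higher and 5 lower, with a median of 0.085. None of the genes in these 5 lists was 2-fold apart, beside 0.695% of symbols higher and 0.944% lower by that limit over all symbols above 3 TPM in 1 or both pools, a background so low that the count of 0 is not particular to these lists.

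Other short RNAs in the same files also differed often between the pools. Of 1324 rows whose symbol starts with Mir, most of them microRNA precursors, 151 (11.4%) and 140 (10.6%) were above 3 TPM, fewer than among the snoRNA rows. Of 200 Mir rows above 3 TPM in 1 or both pools, 58 (29.0%) were 2-fold higher and 69 (34.5%) 2-fold lower in the alum + KLH pool, beside 22.9% and 24.1% of the 83 member rows without Snord116. Of 830 other NR rows so filtered, 1.08% were 2-fold higher and 9.76% 2-fold lower.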

How the data were processed

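The deposited files hold TPM values per RefSeq transcript, 1 file per library. Per the labels and methods, the authors made stranded mRNA libraries, read 75 base pair ends on a NextSeq 500, and processed them with bcl2fastq, cutadapt and kallisto on annotated transcripts of mm10; versions are not given in the sources used here. The TPM were taken as deposited. Sums, log2((TPM + 1) / (TPM + 1)) ratios of the alum + KLH pool over the alum pool, 3 TPM detection and a 2-fold limit were computed with Python 3.11.15, pandas 2.3.3, numpy 2.4.6 and scipy 1.17.1, and plots were drawn with matplotlib 3.10.9. The files give no counts, so depth is unknown. For records of up to 150 bases the step was sought from 59 bases outwards, as the value divided by a whole number up to 12, within 9% of the step before it, that left most rows whole. Positions, hosts and RNA sequences came from GENCODE M21 and record positions and lengths from RefSeq, both on GRCm38, and all 119 accessions matched by identifier. Named rows are the 10 highest by mean, the 5 highest and 5 lowest log2 ratios, every row above 3 TPM in one pool and under 0.01 TPM in the other, every Scarna and Snord116 row, textbook members, their hosts and 5 gene lists; Snora70, Snord1b and the host examples were chosen after their values were seen. Genes of the lists were summed over rows per symbol. The members and lists were chosen with earlier results of these data known. Fold calls and the step search were tested on simulated data. No test or adjustment was made, since each group has 1 library.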

Additional observations from a re-analysis of the deposited data

How the results depend on the processing

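No paired analysis was possible because each group has 1 library, and for the same reason no library could be left out. A count or sum was taken to move when it changed by more than 1.5 times, and a median when it shifted by over 0.1. With a threshold of 10 TPM, 53 rows were detected in the alum pool, and above 0 TPM 105 rows were in the alum + KLH pool. Filtered at 10 TPM, 9 rows were 2-fold higher and 10 lower, with a median log2 ratio of 0.05. The share over all rows at this filter was not computed. Summed per symbol, 19 were higher, 23 were lower and the median was 0.03. Over 11648 symbols so filtered, 0.695% were higher and 0.944% lower, with a median of -0.02. The median was -0.01 without a filter. Alternatives chosen after seeing the data were the removal of Snord116 (20 lower, median 0.05), rows above 0 in both pools without Snord116 (median 0.06) and records of at least 60 bases (median -0.62). The last of these kept the Snord116 copies, each at a log2 ratio of -1.74. Without the copies, the median was 0.41 at 60 to 78 bases and -0.73 at 81 to 107 bases. It was 0.05 at 112 to 139 bases and -0.51 at 145 to 275 bases. The summed TPM was 5177 and 5586 without the largest row, and 3971 and 4349 for records of at least 60 bases. Single ratios were varied only by pseudocount and by slight rescaling, which cannot turn the sign of a ratio past the 2-fold limit. That none reversed is therefore no test of them, and rows at 0 in 1 pool were not among them. Of 59 single log2 ratios, that of Snord116l1 moved by more than the neighbour SD, to -3.15 with a pseudocount of 0.1. Since the files give no counts, what depth limits was not measured. Among rows with whole steps, or 0, in both pools, 30 had at most 3 steps in either pool, and 26 of these were 2-fold apart.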
